A study of Mus musculus with 6 samples.

Results

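Classical major histocompatibility complex (MHC) class I molecules and the immunoproteasome were followed through 10 genes, chosen by name among the 32285 genes of the feature lists: H2-K1, H2-D1, B2m, Tap1, Tap2, Tapbp, Psmb8, Psmb9, Psme1 and Psme2. All 10 were found. Their mRNAs were counted in single CD45+ cells of mouse tumours (10x 3' libraries, version 3 chemistry). One breast cancer brain metastasis line had formed the tumours of both groups, within the brain (BrM, 3 libraries) and within the mammary fat pad (MFP, 3 libraries), in C57BL/6J females of 10 to 12 weeks. The sort took CD45+ cells that were stained by RedDot1 and excluded DAPI, a dye that enters dead cells. The labels used here give neither the name and strain of the line nor a separate animal for each library; the spread behind each p-value is that between these libraries and may be technical.

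Class I molecules carry short peptides from inside a cell to its surface, where CD8 T cells read them and where natural killer (NK) cells sense their loss. A heavy chain (H2-K1 and H2-D1 encode the 2 classical ones followed here) folds around a peptide together with beta-2 microglobulin (B2m). The peptides are cut by proteasomes, pumped into the endoplasmic reticulum by the transporter TAP1/TAP2 and loaded with the help of tapasin (Tapbp). Interferon induces the immuno-subunits PSMB8 and PSMB9, which take the place of standard catalytic subunits in new proteasomes, and the PA28 activator built from PSME1 and PSME2. Leukocytes hold much of this machinery at rest, and dendritic cells use it to prime CD8 T cells.

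In the GRCm38 annotation, 7 members lie on chromosome 17 within 1351601 bp: Tapbp (chr17:33915899-33929292, plus strand), H2-K1 (chr17:33996017-34000347, minus), Psmb9 (chr17:34181987-34187764, minus), Tap1 (chr17:34187553-34197225, plus), Psmb8 (chr17:34197721-34201454, plus), Tap2 (chr17:34203527-34216321, plus) and H2-D1 (chr17:35262730-35267499, plus). Psme1 (chr14:55578123-55581529, plus) and Psme2 (chr14:55587441-55591113, minus) are neighbours on chromosome 14, and B2m (chr2:122147686-122153083, plus) lies apart from all others. All are protein-coding genes. The 250 bases before the RefSeq start sites of H2-K1, H2-D1 and B2m (GRCm38.p6) are shown because these are the 3 members whose difference between BrM and MFP was not the same in Treg-like and gamma-delta T-like cells, in a test that is given further on and whose calls were lost with a stricter gate. Capitals mark matches to the motifs listed after them, on either strand.

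H2-K1: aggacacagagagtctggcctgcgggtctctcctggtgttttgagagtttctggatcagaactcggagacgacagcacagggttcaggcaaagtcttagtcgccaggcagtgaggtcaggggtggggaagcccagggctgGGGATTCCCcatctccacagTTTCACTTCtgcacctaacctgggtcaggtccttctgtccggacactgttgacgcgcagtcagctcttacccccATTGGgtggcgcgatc
H2-D1: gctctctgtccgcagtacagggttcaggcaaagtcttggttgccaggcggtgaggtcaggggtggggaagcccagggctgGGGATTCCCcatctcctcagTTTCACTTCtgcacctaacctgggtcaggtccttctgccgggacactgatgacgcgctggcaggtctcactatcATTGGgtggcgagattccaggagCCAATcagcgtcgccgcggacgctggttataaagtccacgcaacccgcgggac
B2m: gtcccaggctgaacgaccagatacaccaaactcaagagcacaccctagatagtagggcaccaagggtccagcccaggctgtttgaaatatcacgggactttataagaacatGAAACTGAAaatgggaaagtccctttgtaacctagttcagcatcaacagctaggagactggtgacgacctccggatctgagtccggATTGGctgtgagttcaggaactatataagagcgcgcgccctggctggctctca

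These stretches are chr17:34000348-34000597 (minus strand), chr17:35262844-35263093 (plus) and chr2:122147437-122147686 (plus). Set against each other with an offset of 60 bases and no gap, the H2-K1 and H2-D1 stretches shared 166 of 190 letters (87.4%). Both hold GGGATTCCC, the core of the kB element of the class I enhancer A, which occurs in 100 of 27025 RefSeq windows from 250 bases before to 50 after a gene's start (0.37%) and in 2 of 9 member windows. Both also hold the interferon regulatory factor core GAANNGAAA (as TTTCACTTC), at a place downstream of the kB element; 7.56% of all windows and 3 of 9 member windows held that core. B2m has GAAACTGAA, a match to the core GAAANNGAA of the interferon-stimulated response element, which 8.57% of all windows and 2 of 9 member windows held; both cores can overlap, as they do in Psme1. No window for Tap2 was used. The gamma-activated site TTCNNNGAA was found in 1 of 9 member windows (Psmb8; 8.47% of all), the cyclic AMP element TGACGTCA in 0 of 9 (1.88% of all) and CCAAT in 6 of 9 (37.9% of all). The window of Tap1 overlaps that of Psmb9, its neighbour on the opposite strand, by 275 bases. Such matches describe letters, not binding.

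The 6 libraries held 7083 to 8986 barcodes and 50692794 to 70944735 UMIs (unique molecular identifiers, 1 per captured mRNA molecule). BrM 1, MFP 1 and MFP 2 had the lower totals and consisted mostly of lymphoid cells, and BrM 2, BrM 3 and MFP 3 had the higher totals and many myeloid cells. Cells were put into classes by their marker UMIs, with no member used as a marker, and raw UMIs were summed per library and class; levels are UMIs per 1000000 UMIs of that sum (CPM). Of 46891 cells kept, 39695 fell into 1 of 16 classes; 1711 cells met the gates of more than 1 lineage and were set aside. A class entered a comparison only with libraries that held at least 20 of its cells, so 9 classes had all 6 libraries and cDC1-like cells had 5. With a 3' assay, levels are compared within a gene only.

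Mature dendritic cell (DC)-like cells, which carry Ccr7 and Fscn1 and are known for presenting antigen in lymph nodes, had the highest mean level for 7 of the 10 members. They numbered 134 in BrM 2, 184 in BrM 3 and 24 in MFP 3. Psme2, a subunit of the PA28 activator, stood out: it was at 1592 and 1459 CPM in mature DC-like cells of BrM 2 and BrM 3 and at 1277 CPM in those of MFP 3, against 551, 641 and 456 CPM in cDC1-like cells of the same libraries. That is 2.27 to 2.89 times the level of cDC1-like cells (the cross-presenting DC) and 3.22 to 4.18 times that of cDC2-like cells. Its partner Psme1 was at 1464, 1355 and 1144 CPM in mature DC-like cells and at 1135, 1082 and 890.5 CPM in cDC1-like cells. Within each of the 3 libraries, mature DC-like cells were the highest class for Tapbp, Psmb8, Psme1 and Psme2. They were not the highest for H2-K1 in MFP 3, for Tap1 in BrM 3, for Tap2 in BrM 3 and MFP 3, or for Psmb9 in BrM 2 and BrM 3. For Tap2 their mean was level with that of Treg-like cells (197.94 and 197.93 CPM).

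The other members had other orders. H2-D1 and B2m had their highest mean in microglia-like cells, at 4172 ± 33.5 CPM and 6653 ± 654 CPM (SD, n = 2), but for H2-D1 mature DC-like cells were higher in both libraries that held the 2 classes. For Psmb8, the immuno-subunit with chymotrypsin-like activity, the highest mean was in cDC1-like cells at 1338 ± 157 CPM (n = 5), which mature DC-like cells at 1314 ± 41.7 CPM (n = 3) did not differ from beyond their spread and exceeded in 3 of 3 shared libraries. Psmb9, the immuno-subunit that replaces the caspase-like one, was at 873 ± 108 CPM in mature DC-like cells and 807 ± 128 CPM in cDC1-like cells, also within the spread. Treg-like cells, defined by Foxp3, followed for both subunits and stood highest for 6 of 10 members among the 9 classes with all libraries. Over all members, 19 of 150 neighbouring pairs in these orders differed by more than the larger of their SDs and 131 did not.

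B-like cells were at the other end: among the 9 classes with all 6 libraries they had the lowest mean of 9 members, and NK-like cells that of Tap1. From the lowest to the highest of these classes the mean levels spanned 1.82-fold for H2-D1 to 3.19-fold for Tap2, and the highest class stood above the lowest in 6 of 6 libraries for every member. Across 67 class and library sums of at least 50 cells, Psme2 followed the mean of the other members most closely (Pearson r = 0.93), and H2-K1 least (r = 0.328). Among the 5511 genes at a mean of at least 20 CPM, those most like the members' mean included Mrpl14 (r = 0.816), Actg1 (0.805), Krcc1 (0.802) and the proteasome subunit Psma5 (0.801), followed by Calm3, Actb, Ube2l3, Itm2c and Slc25a11 (0.796 to 0.779). These correlations are descriptions over sums that share libraries and depth.

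**Figure D1:**
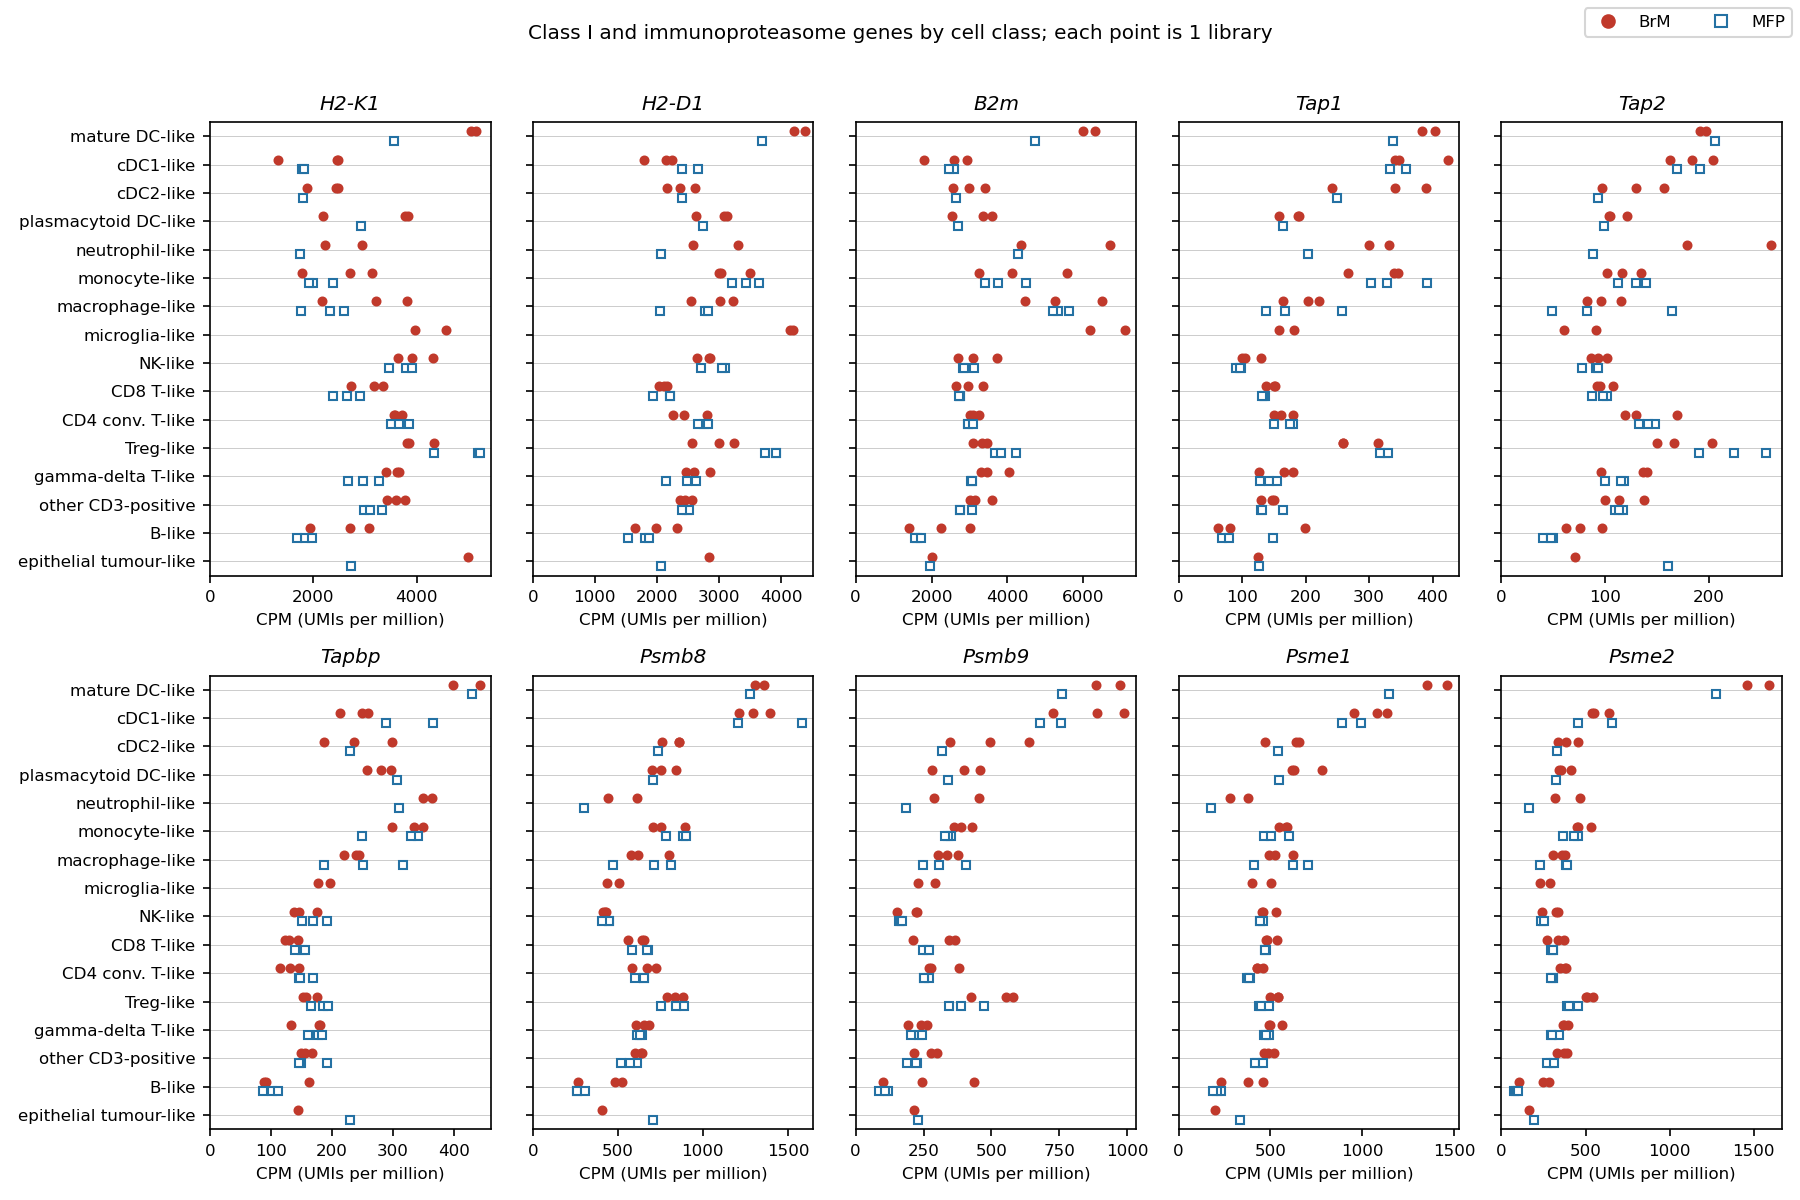
Level of each member (CPM, x axis) in each cell class (rows); every point is the sum of 1 library, filled circles for BrM and open squares for MFP. Psme2 in mature DC-like cells lies at 1277 to 1592 CPM, apart from all other classes, and B-like cells lie low for most members.

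The comparison of the sites asks whether the same kind of leukocyte differs in its class I machinery between an intracranial and an extracranial tumour. No member was called in any class: edgeR's quasi-likelihood test with Benjamini-Hochberg adjustment over all genes of a class called 0 of 100 pairs of member and class, and DESeq2 called 0 as well. In edgeR 17 pairs had an unadjusted p under 0.05. Of these 7 were in B-like cells (395 of 5186 genes), 3 in Treg-like (1792 of 6696), 3 in CD4 conventional T-like (1802 of 10049), 3 in other CD3-positive (1196 of 10781) and 1 in gamma-delta T-like cells (1043 of 9484). The remaining classes had none, beside 669 of 10846 genes in CD8 T-like to 1065 of 7264 in cDC1-like cells. Over all genes tested, edgeR called 0.0% in NK-like, CD8 T-like, gamma-delta T-like, other CD3-positive and B-like cells, 0.00995% in CD4 conventional T-like, 0.358% in cDC1-like, 0.451% in monocyte-like, 3.02% in macrophage-like and 6.94% in Treg-like cells. Of all genes, 4.63% were called higher and 2.31% lower in BrM in Treg-like cells, 1.16% and 1.86% in macrophage-like, 0.202% and 0.249% in monocyte-like and 0.0138% and 0.344% in cDC1-like cells. The log2 fold change, BrM over MFP, was positive in 75 of the 100 pairs. When lower-total and higher-total libraries were compared separately, for 9 classes, 46 of 90 pairs were positive in both, 7 were negative in both and 37 had opposite signs. These values come from 1 fit of site by library kind in which BrM 1 among the lower-total and MFP 3 among the higher-total libraries stand alone in their arm and are assumed to vary like the other groups.

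The sign of the fold change is given here member by member, with no test between roles. Psmb9 and Psme2 had positive fold changes in 10 of 10 classes, with medians of 0.32 and 0.30 on the log2 scale, and Psme1 in 9 of 10 with a median of 0.19, and Psmb8 in 6 of 10 with a median of 0.05. The heavy chain gene H2-K1 was positive in 9 of 10 classes (median 0.26) and B2m in 9 (median 0.17), whereas the other heavy chain gene H2-D1 was positive in 5 (median 0.00). Tap1 was positive in 8 classes (median 0.13) and Tap2 in 7 (median 0.08). Tapbp, the tapasin gene, was positive in 2, with a median of -0.07. The median over all genes tested was between -0.01 and 0.02 in every class. These classes come from the same 6 libraries and are not independent. Among lower-total libraries alone, Psmb9 was negative in B-like, Treg-like, CD8 T-like, NK-like, gamma-delta T-like and macrophage-like cells, from -0.25 to -0.0001. There it was positive in CD4 conventional T-like, monocyte-like and other CD3-positive cells, from 0.03 to 0.35.

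**Figure D2:**
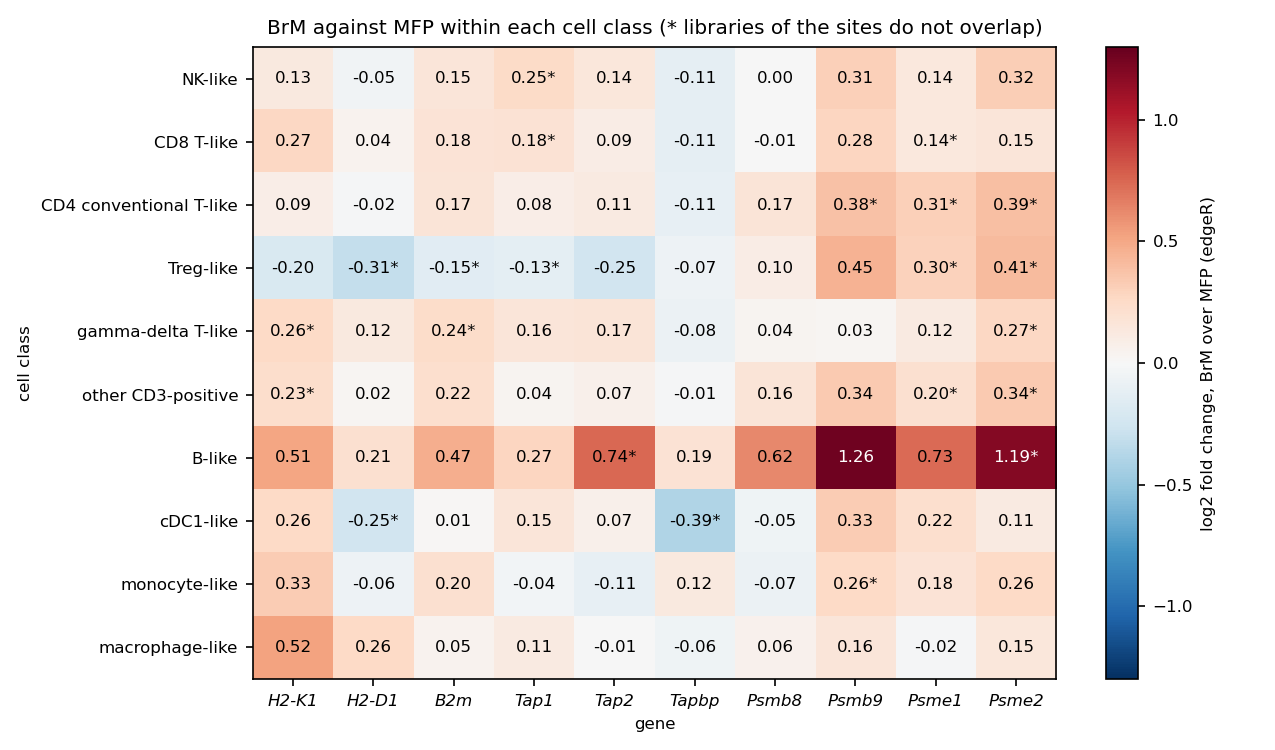
Log2 fold change, BrM over MFP, from edgeR for each cell class (rows) and member (columns); the colour runs from blue (lower in BrM) to red (higher in BrM), and an asterisk marks pairs whose libraries do not overlap between the sites. The B-like row holds the 2 largest values (1.26 for Psmb9 and 1.19 for Psme2), and 6 of the 10 values of the Treg-like row are below 0.

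The lowest BrM library exceeded the highest MFP library in 17 pairs, and the order was the reverse in 5. Psme2 did so in CD4 conventional T-like cells, at 348, 380.3 and 382 CPM in BrM 1 to 3 and 309, 305 and 297 CPM in MFP 1 to 3 (log2 fold change 0.39, SE 0.12, edgeR adjusted p = 0.163). The lowest BrM library was above the highest MFP one, and the fold change was 0.26 among lower-total and 0.55 among higher-total libraries. Psme1 of the same cells was at 459, 425 and 429 CPM in BrM and 372, 387 and 384 CPM in MFP (0.31, SE 0.11, edgeR adjusted p = 0.209; 0.35 within each library kind). Psmb9 was at 279, 271 and 381 CPM in BrM and 269.6, 252 and 251 CPM in MFP (0.38, SE 0.15, edgeR adjusted p = 0.246), where BrM 3 stood apart and the other BrM libraries lay just above MFP 1. Psme1 and Psme2 encode the PA28 activator and Psmb9 an immuno-subunit. In CD4 conventional T-like cells 7.76% of all genes did not overlap with BrM higher and 17.1% with BrM lower.

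The pattern of Psme2 recurred in other T cells. Other CD3-positive cells had 332, 371 and 388 CPM in BrM and 296, 272 and 313 CPM in MFP (0.34, SE 0.11, edgeR adjusted p = 0.42), again without overlap, as did H2-K1 and Psme1 (7.29% of all genes higher, 10.0% lower). Gamma-delta T-like cells had Psme2 at 365, 370.5 and 396 CPM in BrM and 339.6, 294 and 302 CPM in MFP, with H2-K1 and B2m also apart (9.13% of all genes higher, 8.78% lower). In CD8 T-like cells Tap1 and Psme1 did not overlap with BrM higher (3.81% of all genes, and 9.75% with BrM lower). The same held in NK-like cells for Tap1 alone (6.95% higher, 9.96% lower) and in monocyte-like cells for Psmb9 alone (5.94% higher, 11.0% lower). In cDC1-like cells H2-D1 and Tapbp were lower without overlap (18.7% of all genes lower, 13.8% higher). H2-D1 was at 1799.7, 2143 and 2237 CPM in BrM and 2667 and 2399.9 CPM in MFP 1 and MFP 3. These sums held 38, 248 and 207 cells in BrM 1 to 3 and 23 and 60 cells in MFP 1 and MFP 3. Macrophage-like cells had no member without overlap (5.01% of all genes higher, 4.92% lower). H2-K1, the member with the largest fold change there (0.52, SE 0.27, edgeR adjusted p = 0.42), was at 2173, 3204 and 3805 CPM in BrM and 2319.8, 1759.6 and 2602 CPM in MFP.

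Each immuno-subunit was also set against the standard subunit that it replaces, as a share of the UMIs of both. Psmb9 made up 64.5% of Psmb9 and Psmb6 UMIs in CD8 T-like cells of BrM and 59.1% in those of MFP, and 64.1% and 60.3% in other CD3-positive cells of BrM and MFP, without overlap. In Treg-like cells the shares of Psmb8 (of Psmb8 and Psmb5; 78.8% ± 1.09 in BrM and 81.3% ± 1.17 in MFP, SD, n = 3) and of Psmb10, the remaining immuno-subunit (of Psmb10 and Psmb7; 60.3% ± 3.5 and 68.9% ± 1.9), were lower in BrM without overlap. H2-K1 made up a larger part of H2-K1 and H2-D1 UMIs on average in BrM in 9 of 9 classes, without overlap in 4, for example 56.2% ± 2.0 in BrM and 51.3% ± 0.9 in MFP in B-like cells. Of 36 shares tested, 8 did not overlap; their exact two-sided permutation p was 0.1, the smallest that 3 against 3 libraries allow, and the lowest adjusted p was 0.45.

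B-like cells had the largest differences, and they rested on 2 of the 3 BrM libraries. Psmb9 was at 99.0, 244 and 436 CPM in BrM 1 to 3 and 86.8, 119 and 107 CPM in MFP 1 to 3 (log2 fold change 1.26, SE 0.42, edgeR adjusted p = 0.614). Psme2 was at 104, 249 and 280.1 CPM in BrM and 77.8, 89.8 and 101 CPM in MFP (1.19, SE 0.34, edgeR adjusted p = 0.608). BrM 2 and BrM 3 were high in both genes, while BrM 1 lay inside the MFP range for Psmb9 and just above it for Psme2. Tap2, a subunit of the peptide transporter, was at 62.2, 76.1 and 96.5 CPM in BrM and 49.2, 40.0 and 48.1 CPM in MFP (0.74, SE 0.26, edgeR adjusted p = 0.614); with Psme2 it was the only member without overlap (7.62% of all genes higher, 7.56% lower). H2-K1 was at 1934, 2714 and 3077 CPM in BrM and 1836, 1973 and 1676 CPM in MFP (0.51, SE 0.17), Psme1 at 229, 381 and 457 CPM and 232, 207 and 187 CPM (0.73, SE 0.25), and Psmb8 at 267, 482 and 523 CPM and 259, 259.6 and 309.7 CPM (0.62, SE 0.24). Their edgeR adjusted p-values were 0.614, 0.614 and 0.628, and in each BrM 1 lay near the MFP libraries.

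For 8 of the 10 members BrM 2 and BrM 3 both exceeded every MFP library in B-like cells, and BrM 1 lay within the MFP range for 6 members, above it for 2 and below it for 2. Without BrM 1, edgeR called 7 members, H2-K1 (0.68), B2m (0.72), Tap2 (0.98), Psmb8 (0.92), Psme1 (1.00), Psme2 (1.63) and Psmb9 (1.76), among 428 of 4094 genes. Both BrM libraries left were higher-total, while MFP 1 and MFP 2 were lower-total, so site and library kind were largely mixed in that fit. Among higher-total libraries, where MFP 3 is the single MFP library, 5 members were called among 146 of 5186 genes; among lower-total libraries, where BrM 1 is the single BrM library, Psmb9 was at -0.07 and Psme2 at 0.29, with 0 members called. The class was small where these values were high: 416, 59 and 79 cells in BrM and 200, 244 and 51 cells in MFP.

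The summed markers of macrophages were also highest in B-like cells of BrM 2 and BrM 3, followed by MFP 3 and BrM 1. The summed level of 8 macrophage markers in B-like cells was 954, 2242 and 3859 CPM in BrM 1 to 3 and 609, 518 and 1431 CPM in MFP 1 to 3, which is 5.06%, 6.75% and 13.03% and 3.68%, 2.19% and 5.64% of the level in macrophage-like cells of the same libraries; 1 to 2 of the 8 markers were at 0 in BrM and 2 to 4 in MFP. Most of it was Apoe, singled out after its values were seen, at 941, 1938 and 3659 CPM in BrM and 559.9, 512 and 1164 CPM in MFP. The complement genes C1qa, C1qb and C1qc together were at 12.0, 279 and 149 CPM in BrM and 48.0, 6.06 and 246 CPM in MFP. The plasma cell genes Jchain, Mzb1 and Xbp1 summed to 329.7, 315 and 921 CPM in BrM and 255, 249 and 283 CPM in MFP. In the T-like and NK-like classes the 8 macrophage markers summed to 11.0 to 39.2 CPM in BrM 1 and 335 to 600 CPM in BrM 2. The part of macrophages, plasma cells or their RNAs in the B-like result was not tested.

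**Figure D3:**
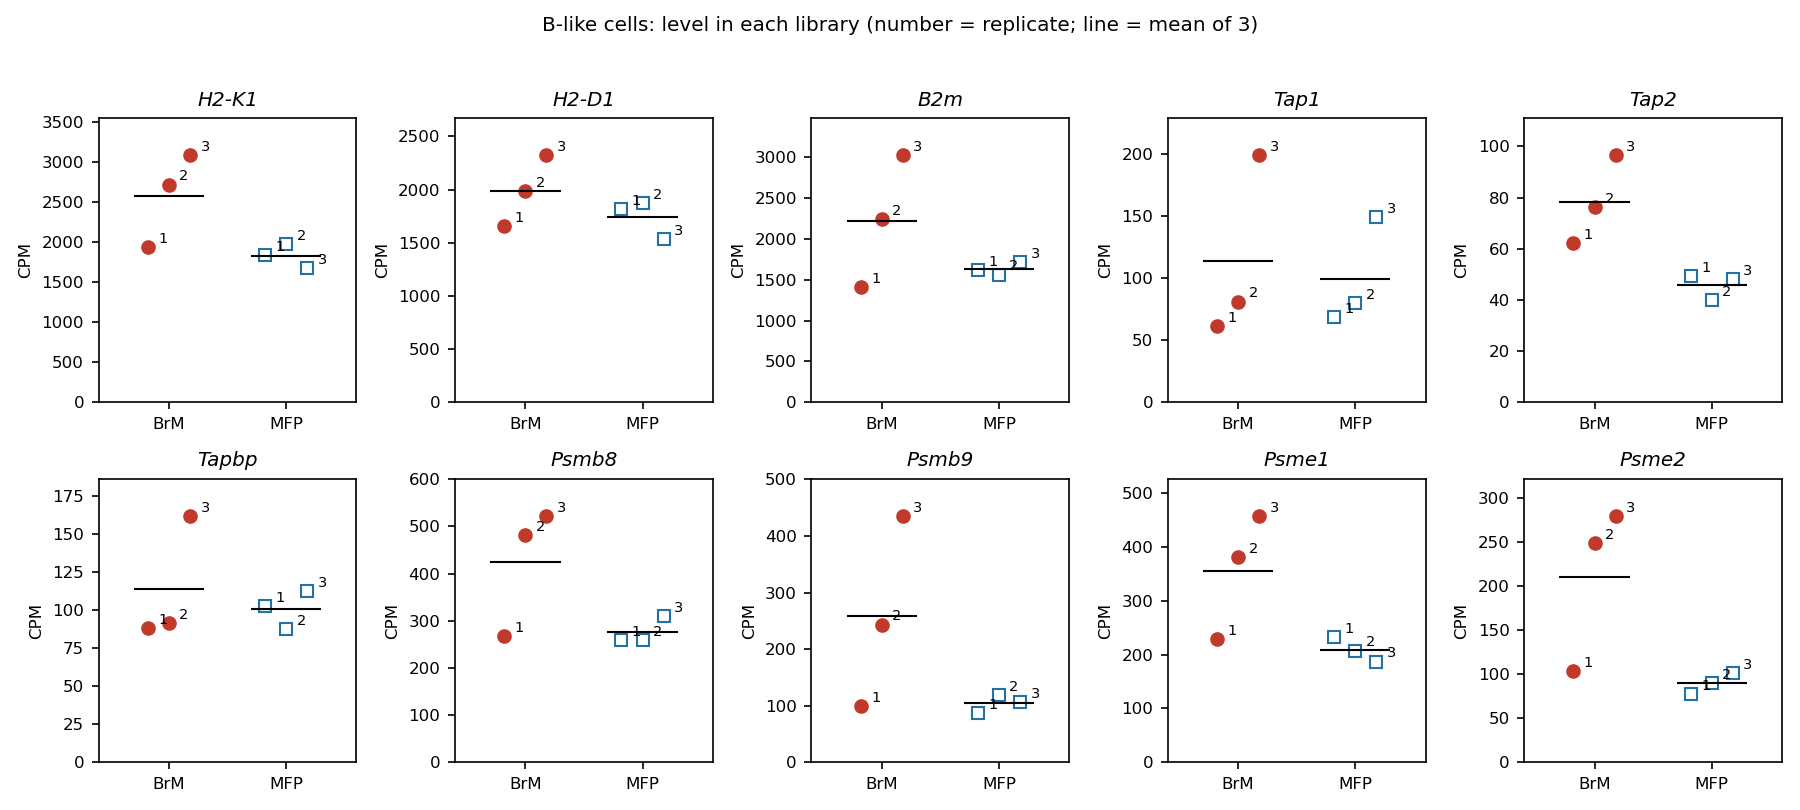
Level of each member in B-like cells (CPM, y axis) by site; each point is 1 library with its replicate number, filled for BrM and open for MFP, and the line is the mean of 3. BrM 2 and BrM 3 stand above the MFP libraries for most members, and BrM 1 among them.

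Treg-like cells are known to restrain other T cells. In them 4 of the 10 members had positive fold changes, Psme1, Psme2, Psmb8 and Psmb9, and none was called. Psme2 was at 502, 512 and 547 CPM in BrM and 456, 391 and 401 CPM in MFP (0.41, SE 0.15, edgeR adjusted p = 0.099, the lowest of the 100 pairs). Psme1 was at 542, 498 and 543 CPM in BrM and 437, 450.1 and 491 CPM in MFP (0.30, SE 0.14), also without overlap. Psmb9 overlapped, at 427, 554 and 581 CPM in BrM and 474, 389.6 and 345 CPM in MFP (0.45, SE 0.18, edgeR adjusted p = 0.136); its fold change was -0.0001 among lower-total and 0.88 among higher-total libraries. Psmb8 was at 0.10 (SE 0.14, edgeR adjusted p = 0.696).

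The heavy and light chain genes had negative fold changes in Treg-like cells, also with no call. H2-D1 was at 3237, 3000.3 and 2562 CPM in BrM and 3748, 3925 and 3921 CPM in MFP (-0.31, SE 0.13, edgeR adjusted p = 0.155). B2m was at 3336, 3106 and 3470.3 CPM in BrM and 3668, 3838 and 4221 CPM in MFP (-0.15, SE 0.13). For both, and for Tap1 (315, 259 and 258 CPM in BrM and 325, 318 and 330.1 CPM in MFP), every BrM library was below every MFP library. H2-K1 was at 3816, 4333 and 3851 CPM in BrM and 4332, 5189.6 and 5234 CPM in MFP (-0.20, SE 0.14), where BrM 2 and MFP 1 were level. Of all genes in this class, 14.0% did not overlap with BrM higher and 20% with BrM lower. All 3 chains had negative fold changes within both library kinds (-0.15 to -0.33).

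In gamma-delta T-like cells the same 3 genes were on the BrM side. H2-K1 was at 3623, 3414 and 3657 CPM in BrM and 2966, 3271 and 2664 CPM in MFP (0.26, SE 0.11), and B2m at 3459.6, 3300.4 and 4030.3 CPM and 3037, 3058 and 3055 CPM (0.24, SE 0.11), both without overlap. H2-D1 overlapped, at 2859, 2469.7 and 2602 CPM in BrM and 2488, 2625 and 2147 CPM in MFP (0.12, SE 0.11). The difference of the site effect between these classes, a test added after the values were seen, was -0.49 for H2-K1 (SE 0.11, edgeR adjusted p = 0.029), -0.46 for H2-D1 (SE 0.11, edgeR adjusted p = 0.0354) and -0.40 for B2m (SE 0.10, edgeR adjusted p = 0.0374), Treg-like minus gamma-delta T-like. In that model, with library as a block, 323 of 8875 genes were called (3.64%), and the other 7 members were not. Set against CD8 T-like cells (1.43% of genes called) or NK-like cells (0.316%), 0 members were called in edgeR, with 3 and 2 at an unadjusted p under 0.05; H2-K1 was at -0.49 (SE 0.15, edgeR adjusted p = 0.103) and -0.29 (SE 0.12, edgeR adjusted p = 0.244).

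These calls were lost when cells with any UMI of a defining marker of another lineage were removed, where the differences were -0.23, -0.46 and -0.35 with edgeR adjusted p of 0.75, 0.424 and 0.564. Leaving out any 1 library left 0 to 1 of the 3 calls. Treg-like cells numbered 217, 108 and 59 in BrM and 115, 137 and 66 in MFP, and gamma-delta T-like cells 963, 221 and 270 in BrM and 490, 575 and 128 in MFP. Macrophage markers in these classes were at most 2.19% of the level in macrophage-like cells of the same library, with the higher levels in the libraries of higher total.

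**Figure D4:**
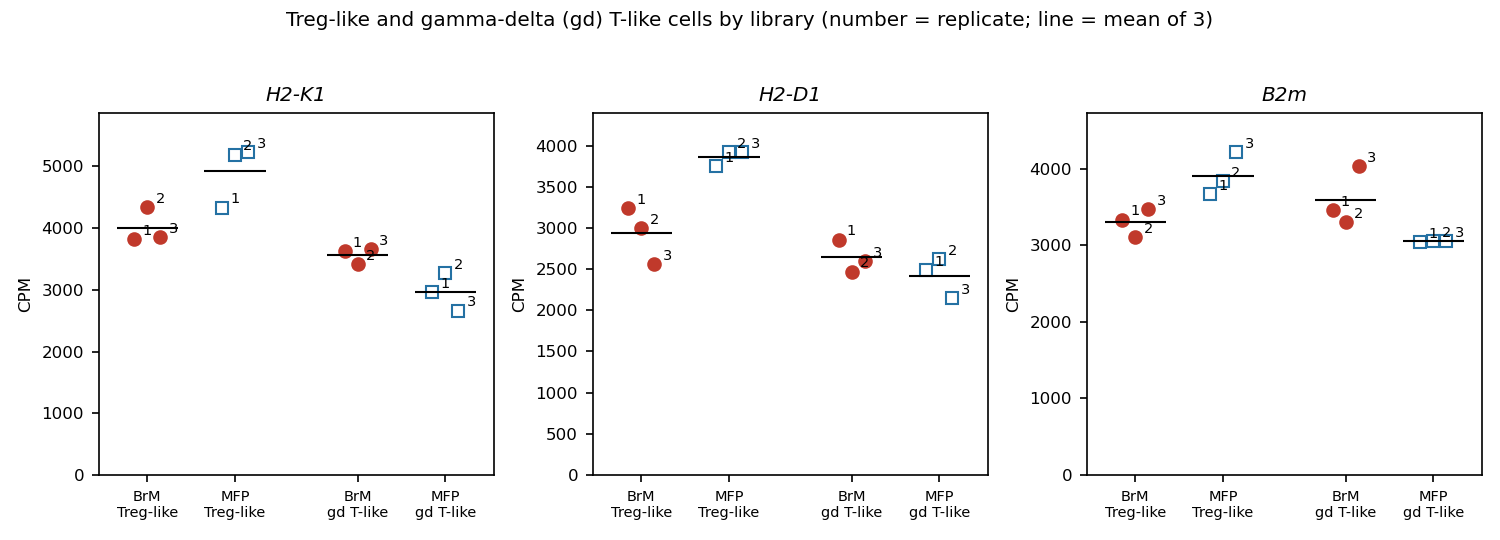
Level of H2-K1, H2-D1 and B2m (CPM, y axis) in Treg-like and gamma-delta (gd) T-like cells by site; each point is 1 library with its replicate number, filled for BrM and open for MFP, and the line is the mean of 3. BrM points mostly lie lower than MFP points in Treg-like cells and mostly higher in gamma-delta T-like cells.

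Other genes of the pathway were read from 5 lists of 68 genes. In Treg-like cells edgeR called 14 of them, 11 higher and 3 lower in BrM. Of 29 other proteasome subunits all had positive fold changes there (median 0.61, against -0.01 over all genes), and 10 rose: Psma1, Psma4, Psma5, Psma7 and Psmb4 of the core and Psmc1, Psmc2, Psmd6, Psmd12 and Psmd14 of the regulatory cap. Psmd6 was at 102, 125 and 172 CPM in BrM and 61.6, 73.0 and 68.0 CPM in MFP (1.04, SE 0.23, edgeR adjusted p = 0.0293), and Psma4 at 309.8, 361 and 425 CPM and 218, 216 and 227 CPM (0.82, SE 0.17, edgeR adjusted p = 0.0269). Pomp, the proteasome assembly factor, rose as well (0.57). The non-classical class I genes lay the other way: 8 of 8 tested were negative (median -0.55) and 2 fell, H2-Q6, at 166, 160.5 and 148 CPM in BrM and 289, 312 and 287 CPM in MFP (-0.81, SE 0.16, edgeR adjusted p = 0.0245), and H2-Q4 (-0.74). Lnpep, an aminopeptidase of cross-presentation, fell too (-0.91).

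These 14 calls depended on single libraries. Without BrM 2, BrM 3, MFP 2 or MFP 3 there were 0 in Treg-like cells, without MFP 1 there were 5 and without BrM 1 there were 30; with library kind as a term there were 0. In the other 9 classes edgeR called 0 of 590 pairs of list gene and class, and DESeq2 called 8; 88 pairs had an edgeR p under 0.05 before adjustment. Of the 290 pairs that concern other proteasome subunits 266 were positive, with class medians of 0.14 to 0.61. In CD4 conventional T-like cells the lowest p-values were those of Psmc2 (0.71), Psmb3 (0.55) and Psma5 (0.69), at an edgeR adjusted p of 0.154. Nfkb1 was among the genes of lowest p in monocyte-like (0.48) and CD8 T-like cells (-0.28). Psmc2 recurred in monocyte-like (0.57), macrophage-like (0.56) and CD8 T-like cells (0.37). Others were Psmd7, Tapbpl and Rfxap in NK-like, Pdia3, Rfxap and Rfx5 in gamma-delta T-like, Rfx5 and Psma1 in other CD3-positive, Psma6 and Psmb10 in B-like, Lnpep and Psmd6 in macrophage-like and Stat2 in CD8 T-like cells.

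Microglia-like cells were set apart by at least 2 of P2ry12, Sall1 and Sparc together with C1q UMIs, and 316 cells of BrM 2 and 211 of BrM 3 were compared with the macrophage-like cells of the same libraries. Both heavy chain genes were higher in microglia-like cells, and 5 genes of peptide production, transport and loading were lower. H2-D1 was at 4148 and 4196 CPM in microglia-like cells and 3012 and 3221 CPM in macrophage-like cells (0.41, SE 0.11, edgeR adjusted p = 0.000464), and H2-K1 at 3967 and 4572 CPM against 3204 and 3805 CPM (0.28, SE 0.11, edgeR adjusted p = 0.0265). B2m did not pass, at 6190.2 and 7115 CPM against 5261 and 6509 CPM (0.17, SE 0.11, edgeR adjusted p = 0.229). Psmb9 was at 229 and 292 CPM in microglia-like and 304 and 376 CPM in macrophage-like cells (-0.40, SE 0.09, edgeR adjusted p = 4.11e-05). Psme2 fell by 0.37, Psmb8 by 0.36, Tapbp by 0.32 and Tap2 by 0.28 on the log2 scale. Psme1 (-0.19) and Tap1 (-0.18) had adjusted p-values of 0.0829 and 0.0974 in edgeR. The 7 members called, 2 higher and 5 lower, stand beside 4601 of 11762 genes (39.1%; 20.2% higher and 18.9% lower).

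Further pathway genes differed in microglia-like cells too. Of the 29 other proteasome subunits 17 fell and 0 rose, with Psmd14 (-0.60) and Psma7 (-0.54) in front (median -0.26, against 0.00 over all genes), as did the immuno-subunit Psmb10 (-0.42), the activator Psme4 (-0.32) and the loading chaperones Pdia3 and Calr (-0.23 each). Of the non-classical genes 4 of 10 rose, among them Mr1, which presents vitamin metabolites (1.54), and H2-Q6 (0.61). Of 12 transcription factors Nlrc5, the class I transactivator (0.35), Relb (0.46) and Nfkb1 (0.52) rose and Rfxap fell (-0.73). Both classes express the macrophage markers, which summed to 46729 and 40011 CPM in microglia-like and 33197 and 29623 CPM in macrophage-like cells. Without the library as a block 3 members were called instead of 7. MFP 3 had 20 cells that met the microglia gate and BrM 1, MFP 1 and MFP 2 had 0 to 2, and none of these entered the comparison.

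Epithelial tumour-like cells, which passed the CD45 sort but had no UMI of the CD45 gene Ptprc, carried keratins (Krt8, Krt18) and the secretory genes Csn3 and Wfdc18 and numbered 45 in BrM 2 and 23 in MFP 3. Their sums are small, 665500 and 230287 UMIs, and the median depth was 13756 UMIs in BrM 2 and 1370 in MFP 3. Against the summed UMIs of all gated leukocytes of the same libraries, 5 members were lower in edgeR. That stands beside 4452 of 13655 genes called (32.6%, with 12.4% higher and 20.2% lower). Macrophage-like cells gave the leukocyte sum the most UMIs, 23103690 in BrM 2 and 32191054 in MFP 3. B2m was at 2015 CPM (95% exact Poisson interval 1909 to 2126, for counting error only) in BrM 2 and 1967 CPM (1790.1 to 2157) in MFP 3, against 4281 and 4381 CPM in leukocytes (-1.57, SE 0.46, edgeR adjusted p = 0.00299). Psme1 was at 199.8 (167 to 237) and 334 CPM (264 to 418), against 546 and 439 CPM (-1.39, SE 0.33, edgeR adjusted p = 0.00021), and Psme2 at 165 (136 to 199) and 195 CPM (143 to 261), against 367 and 269 CPM (-1.28, SE 0.32, edgeR adjusted p = 0.000296).

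Tap1 (125 and 126 CPM against 178 and 176 CPM; -0.96) and Psmb9 (213 and 230.1 CPM against 359 and 260.0 CPM; -0.93) completed the 5. The median over all genes was -0.35 in this fit and 0.12 with library totals as the only scaling. With library totals, or with DESeq2, B2m, Psme1 and Psme2 remained called and Tap1 and Psmb9 were not. H2-K1 did not pass the test, at 4992 (4823 to 5164) and 2736 CPM (2526 to 2958) in epithelial tumour-like cells against 3309 and 2588 CPM in leukocytes (-0.11, SE 0.45, edgeR adjusted p = 0.874), and the sign flipped to 0.34 with library totals. H2-D1 was at 2844 and 2067 CPM against 2821 and 2648 CPM (-0.62, SE 0.43, edgeR adjusted p = 0.286). Tap2 (-0.33, 0.13 with library totals), Tapbp (-0.69) and Psmb8 (-0.59) were not called. Over the libraries of each class, only B-like cells had lower means than epithelial tumour-like cells for B2m (1928 against 1991 CPM) and Psme2 (150 against 180 CPM). For Tap1 (125 CPM) B-like and NK-like cells were lower, at 107 and 103 CPM, and for Psmb9 (222 CPM) both were at 182 CPM. For Psme1 epithelial tumour-like cells had the lowest mean of the 16 classes (267 CPM).

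In these cells Psmb9 made up 38.7% of Psmb9 and Psmb6 UMIs in BrM 2 and 48.6% in MFP 3, and Psmb10 made up 39.5% and 38.7% of Psmb10 and Psmb7 UMIs, against class means of 52.1% to 71.4% and 62.9% to 77.2% among the 9 leukocyte classes with all libraries. Psmb8 made up 69.4% and 78.0% of Psmb8 and Psmb5 UMIs, against class means of 72.7% to 81.3%. Single leukocyte libraries had Psmb9 shares under the 48.6% of MFP 3, such as 40.4% in B-like cells of MFP 1 and 45.7% in macrophage-like cells of BrM 1. No test was made of these shares. Of 12 transcription factors of class I genes 8 fell, among them Nfkb1 (-2.20) and Relb (-2.10), and Irf9, Stat2, Rela, Nlrc5 and Irf2 between -1.51 and -0.99. Psmb10 (-1.27), Lnpep (-1.88), Tpp2 (-1.61), Pdia3 (-1.09), H2-M3 (-2.33), H2-Q6 (-1.11) and H2-Q4 (-0.93) fell too. Thop1, a peptide-destroying peptidase (1.65), and 5 of 29 other proteasome subunits rose, Psmd12 (1.27), Psmc5 (1.09), Psmd3 (1.05), Adrm1 (0.86) and Psmd11 (0.73). B cell markers were at 0 in both libraries, T cell markers at 9.02 and 0 CPM and NK markers at 3.01 and 0 CPM. The macrophage list was at 343 and 321 CPM, with 2 of 8 markers at 0 in each, against 33197 and 25382 CPM in macrophage-like cells.

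**Figure D5:**
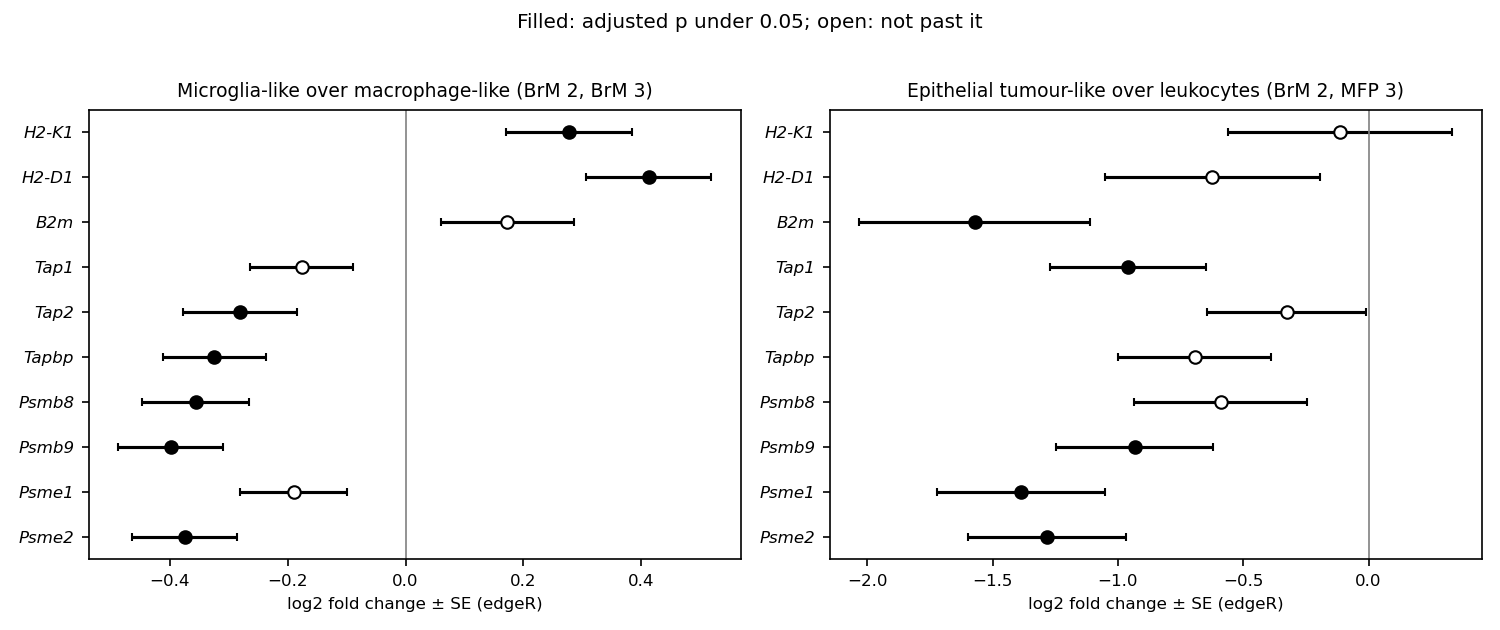
Log2 fold change with its SE (x axis) of each member for microglia-like over macrophage-like cells of BrM 2 and BrM 3 (left) and epithelial tumour-like cells over leukocytes of BrM 2 and MFP 3 (right), from edgeR; filled points passed an adjusted p of 0.05. H2-K1 and H2-D1 are the filled points above 0 on the left, and B2m has the lowest value on the right (-1.57).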

How the data were processed

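The authors deposited 10x matrices that hold unnormalized UMI counts for each barcode; Cell Ranger 4.0 and the mm10 build are given per the submitters' processing notes, and the annotation release is not given in the sources used here. A minimum of 500 UMIs and 200 detected genes and a mitochondrial share of up to 10% kept 46891 of 49518 barcodes. The members and lists were chosen with earlier results of these data known. Cells were gated by marker UMIs; 1711 cells (3.65%) met the gates of more than 1 lineage and were set aside, 5485 (11.7%) met none, no doublet caller was run, and doublets within a lineage remain. Libraries shared 10 to 39 barcodes pairwise, at most 0.476% of the smaller library.

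Counts were summed per library and class with at least 20 cells and tested with edgeR 4.0.16 (filterByExpr, TMM, quasi-likelihood, Benjamini-Hochberg over all genes of a class, threshold 0.05) in R 4.3.3; comparisons of classes within libraries had the library as a block. Shares were compared by an exact two-sided permutation test over libraries (scipy 1.17.1). Alternatives were DESeq2 1.42.0, library totals, no filter, at most 5% mitochondrial UMIs, at least 50 cells, a strict gate, library kind as a term or within kinds, a replicate block and leaving out each library. The fits were tested on simulated data.

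Named in full were the 12 pairs of member and class with the lowest p, list genes past the threshold or otherwise the 3 of lowest p in each class with all 6 libraries, and the 10 genes most like the members, except 1 gene that is not reported here; pairs whose libraries do not overlap and the markers Apoe, C1q and Jchain were added after their values were seen. Plasmacytoid DC-like, cDC2-like, mature DC-like and neutrophil-like cells had 1 MFP library and were not tested by site. Psme2 shares 39.0% of its 91-base windows in the last 500 transcript bases with Psme2b, so reads from these stretches cannot be told apart; gated cells held 97181 Psme2 and 4495 Psme2b UMIs.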

Additional observations from a re-analysis of the deposited data

Results flagged for a closer look

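For 3 members the site effect differed between Treg-like and gamma-delta T-like cells in edgeR, in a test added after both classes had been seen. The difference in log2 fold change, Treg-like minus gamma-delta T-like, was -0.4938 for H2-K1, -0.4623 for H2-D1 and -0.4035 for B2m. With the stricter gate 0 of the 3 were called, at edgeR adjusted p of 0.75, 0.424 and 0.564, and 0 to 1 were called when a library was left out. Against CD8 T-like or NK-like cells edgeR called 0 members, with 3 and 2 at an unadjusted p under 0.05.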

How the results depend on the processing

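For the members by site, the count of 0 calls became 2 of 100 without a filter on low counts and 10 within the libraries of higher total, and ranged from 0 to 12 when a library was left out (12 without BrM 1, of which 7 were in B-like cells). Whether the replicate numbers pair the libraries is not stated in the labels used here. With a replicate block the count of members called was 0 of 90. For the pathway lists, 14 calls became 27 with DESeq2, 2 with library kind as a term, 30 without the filter, 2 with a replicate block, 0 with the strict gate, 48 within the libraries of higher total and 1 within those of lower total, and ranged from 0 to 82 when a library was left out (82 without BrM 1). Leaving out BrM 1 left only higher-total libraries for BrM, while MFP 1 and MFP 2 were lower-total. The 7 microglia-like calls became 3 without the library block. The 5 epithelial tumour-like calls became 3 with DESeq2 and 3 with library totals; the strict gate could not be fitted, with too few cells, and with 2 libraries none could be left out. The 3 differences between Treg-like and gamma-delta T-like cells became 0 with the strict gate and 0 to 1 when a library was left out. The 8 shares without overlap became 3 with the strict gate. They became 8 to 19 when a library was left out, a count that could only stay or rise. Removing a library cannot make sites overlap that did not, so this is no check of the 8. Within the libraries of lower total, Psmb9 turned to -0.0733 in B-like, -0.0001 in Treg-like and -0.21 in CD8 T-like cells. It also turned in NK-like (-0.12), gamma-delta T-like (-0.25) and macrophage-like cells (-0.08). Psmb9 stayed positive in CD4 conventional T-like (0.18), monocyte-like (0.35) and other CD3-positive cells (0.03). With library totals, signs turned for H2-K1 (0.34) and Tap2 (0.13) in epithelial tumour-like cells. Library totals moved the median of all genes to -0.136 in macrophage-like cells. Of the 100 pairs of member and class, 65 kept their sign under every alternative other than the fits within library kinds, where 37 of 90 pairs had opposite signs. The cause of these changes was not tested. Small classes (51 to 79 B-like and 59 to 66 Treg-like cells in the smallest libraries) limit what can be detected. Macrophage-like sums held only 52, 53 and 24 cells in BrM 1, MFP 1 and MFP 2, and monocyte-like sums 53, 51 and 27. The cDC1-like sums held 38 cells in BrM 1 and 23 in MFP 1.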
